A study of Mus musculus with 72 samples.

Results

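The cytochrome P450 genes of families CYP2 and CYP3 were examined together with Nr1i2, Nr1i3 and Por. The members were every gene whose symbol begins with Cyp2 or Cyp3 followed by a subfamily letter, plus those 3 partner genes. The arrays measured 55 such genes with a probe set of their own, of 20772 genes in all: 52 P450 genes and the 3 partners. A further 6 symbols, Cyp2a4, Cyp2c40, Cyp2c69, Cyp3a41a, Cyp3a41b and Cyp3a59, lie only on 5 probe sets shared by several genes and were not measured separately. By subfamily there were 3 Cyp2a, 5 Cyp2b, 13 Cyp2c, 10 Cyp2d, 1 Cyp2e, 1 Cyp2f, 1 Cyp2g, 6 Cyp2j and 6 Cyp3a genes, and 6 single genes of other CYP2 subfamilies (Cyp2ab1, Cyp2r1, Cyp2s1, Cyp2t4, Cyp2u1 and Cyp2w1). Neighbouring genes of the subfamilies are close in sequence, so a probe set of one may also bind the transcript of another. Among others, this touches Cyp3a11 with Cyp3a44, Cyp2b9 with Cyp2b13 and Cyp2b10, Cyp2c29 with Cyp2c38 and Cyp2c39, Cyp2c37 with Cyp2c50 and Cyp2c54, and Cyp2d9 with Cyp2d10 and Cyp2d11. It also touches Cyp3a25 with Cyp3a57, Cyp2c67 with Cyp2c68 and Cyp2a5 with Cyp2a4, which lie together on shared probe sets as well.

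Male C57BL/6J mice, 8 weeks old at the start, ate either ketogenic food or chow during 4 weeks under 12 h of light and 12 h of dark. RNA of liver and of intestine (labelled IEC) was hybridised to arrays at zeitgeber time (ZT, hours after lights on) 0, 4, 8, 12, 16 and 20. Each of the 24 groups had 3 arrays, which gave 18 arrays for each diet and tissue and 72 in all. The labels do not say that the arrays of a group came from separate animals, and the p-values cover only the spread among these arrays, which may be technical. A treatment text shared by the labels also mentions gavage with a sugar and sugared water without saying that it applied to these mice.

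P450 enzymes of families CYP2 and CYP3 sit in the endoplasmic reticulum and insert oxygen into drugs, steroids, fatty acids, bile acids and plant compounds. They take their electrons from P450 oxidoreductase, the product of Por. Many of the genes are switched on by a pair of nuclear receptors that sense foreign compounds and bile acids, the constitutive androstane receptor CAR (Nr1i3) and the pregnane X receptor PXR (Nr1i2). CAR is best known for Cyp2b10 and PXR for Cyp3a11. Hepatocytes and the absorptive cells of the small intestine are the main sites of this metabolism, and several of the mouse genes are expressed differently in male and female liver.

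Levels are given as log2 of the deposited intensity plus 16, and all differences are on this scale, which understates the changes of weakly expressed genes. A gene was tested in a tissue when its mean there lay above the 40th percentile of all genes (6.84 in liver, 6.80 in intestine), and called when limma's moderated test gave a Benjamini-Hochberg adjusted p under 0.05 over all 12463 genes tested in that tissue. Of the 55 members, 15 passed in both tissues, 24 in liver only, 6 in intestine only and 10 in neither. Marker levels matched the tissue labels. The mean over 7 hepatocyte markers lay between 12.89 and 13.14 on all liver arrays and between 7.50 and 10.02 on intestine arrays, and the mean over 8 enterocyte markers lay between 5.50 and 6.18 on liver arrays and between 11.97 and 12.65 on intestine arrays. The hepatocyte marker mean was highest among intestine arrays on 1 chow array (ZT16 replicate 26, 10.02) and 1 ketogenic array (ZT20 replicate 10, 9.47). On 3 ketogenic intestine arrays (ZT0 replicate 1, ZT8 replicate 26 and ZT20 replicate 27) the residual spread was 1.55 to 2.12 times the tissue's median. Below, the diet differences in intestine are also given without the 3 arrays or the 2 arrays where that changed a call, and so are the counts of rhythms and of single-time calls without the 3 arrays. As each array measured the RNA of many cells together, fewer cells of a type and less RNA per cell cannot be told apart.

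In liver, the ketogenic diet went with one very large change, in Cyp2b9, and otherwise with modest ones. Higher levels were called for 14 of the 39 members tested, against 19.3% of all genes tested, and lower levels for 7, against 29%, so that 21 of 39 were called in all, against 48.3%. The 14 and the 21 include Cyp2b9, which passed the filter only through its ketogenic level. Without it the higher ones were 13. Over all genes, 39.91% of the liver calls were higher ones, and 49.74% after quantile normalization. The other 18 were not called. The median difference, ketogenic minus chow, was 0.03 over the members and -0.03 over all genes tested. At least 1.5-fold was reached by 1 member upward, the same Cyp2b9 (0.915% of all genes), and by 2 members downward (0.987%).

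All 3 partner genes were called higher in ketogenic liver. Nr1i3, which encodes CAR, measured 10.94 on the lowest, 11.30 on the median and 11.75 on the highest ketogenic array, against 10.45, 10.77 and 11.17 on chow arrays. Of the 18 ketogenic arrays, 8 lay below the highest chow array, and 4 chow arrays lay above the lowest ketogenic one. The difference was 0.51 ± 0.05 (SE), a 1.42-fold higher level, with an adjusted p of 1.98e-09 in limma. It was positive at 6 of 6 times, from 0.23 to 0.80, and called at 4 of them. Por, the electron donor of all microsomal P450 enzymes, measured 10.84, 11.49 and 12.26 (lowest, median and highest) on ketogenic arrays, against 10.42, 11.25 and 12.11 on chow arrays. Its ranges overlapped broadly, and the gene varied with time on both diets. The difference of 0.27 ± 0.06 had an adjusted p of 0.000463 and was positive at 6 of 6 times. Nr1i2, which encodes PXR, measured 9.87, 10.26 and 10.68 on ketogenic arrays, against 9.80, 10.12 and 10.62 on chow arrays. Its difference was the smallest of the 3, at 0.15 ± 0.04 (adjusted p = 0.00323), with a positive sign at 4 of 6 times.

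Cyp2b9 (probe set 10551218) showed the largest difference of any member. The gene is a CYP2B enzyme that is known to be expressed mainly in female mouse liver. Its level was 7.80 on the lowest, 11.17 on the median and 13.41 on the highest ketogenic liver array, against 4.90, 5.67 and 10.17 on chow arrays. Of the 18 chow arrays, 15 lay at 6.36 or lower. The other 3 were ZT8 replicate 11 at 10.17, ZT20 replicate 14 at 8.48 and ZT0 replicate 2 at 8.27. These 3 arrays made the ranges overlap. The mean was 11.02 ± 0.97 on ketogenic arrays and 6.07 ± 1.57 on chow arrays (within-group SD, n = 18 each). The chow mean lay below the level filter, so the gene entered the test through its ketogenic values and had to differ. Its size is therefore given as a bound: the ketogenic mean lay 4.18 above the filter level, at least 18.1-fold. The fitted difference of 4.95 ± 0.40 is no exact fold, as it depends on the pseudocount and was 5.48 with 1 in place of 16. By time it ran from 3.60 at ZT20 to 6.29 at ZT0.

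Cyp2b9 was the only one of 5 Cyp2b genes that passed the filter in liver. The other genes lay below it on both diets, where a value may be background. In a fit without the filter, Cyp2b10, the classic target of CAR, averaged 6.06 in ketogenic liver and 5.28 in chow liver, a difference of 0.78 ± 0.09 (adjusted p = 3.31e-08). Cyp2b13, another gene known for its expression in female liver, averaged 5.74 in ketogenic liver and 5.41 in chow liver, a difference of 0.34 ± 0.07 (adjusted p = 0.000213). Because these 3 genes are related neighbours on chromosome 7, their promoters are shown as the 200 bases before the annotated start (RefSeq, build GRCm38.p6), 5′ to 3′ on the gene's strand, with the hexamer AGGTCA, a core sequence that nuclear receptors bind, in capitals on either strand. The windows are chr7:26173209-26173408, chr7:26061295-26061494 and chr7:25897458-25897657, all on the plus strand.
Cyp2b9: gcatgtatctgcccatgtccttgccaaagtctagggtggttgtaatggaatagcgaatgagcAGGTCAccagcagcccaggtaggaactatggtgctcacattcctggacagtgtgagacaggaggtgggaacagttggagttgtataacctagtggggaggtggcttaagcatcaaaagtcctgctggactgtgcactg
Cyp2b13: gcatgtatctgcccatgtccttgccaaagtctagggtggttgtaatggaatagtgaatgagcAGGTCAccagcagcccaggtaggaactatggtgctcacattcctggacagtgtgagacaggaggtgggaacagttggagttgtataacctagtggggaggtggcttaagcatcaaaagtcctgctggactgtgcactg
Cyp2b10: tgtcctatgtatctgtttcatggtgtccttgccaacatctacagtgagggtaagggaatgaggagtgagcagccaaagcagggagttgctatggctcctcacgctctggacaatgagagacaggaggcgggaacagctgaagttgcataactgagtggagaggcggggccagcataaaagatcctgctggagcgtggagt
The windows of Cyp2b9 and Cyp2b13 were 99.5% identical, while Cyp2b9 and Cyp2b10 shared 72% of aligned positions. The hexamer stood at positions -138 to -133 in the first pair, and these letters did not occur in the Cyp2b10 window.

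**Figure D1:**
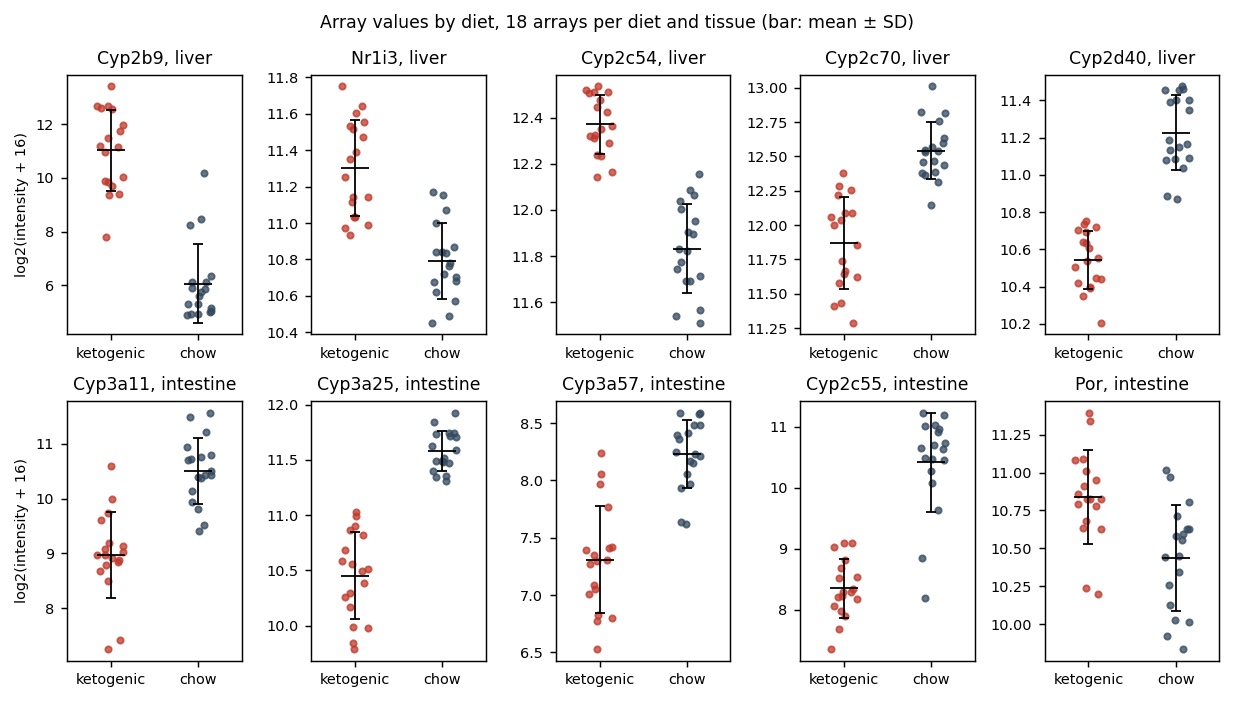
Each point is 1 array, plotted as log2(intensity + 16) for ketogenic (left) and chow (right) mice, with liver genes in the upper row and intestine genes in the lower row (bars, mean ± SD over 18 arrays). Cyp2b9 shows 3 chow liver arrays at 8.27, 8.48 and 10.17 above the rest, and the ranges of Cyp2d40 in liver and Cyp3a25 in intestine do not overlap between diets.

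The Cyp2c subfamily moved in both directions in liver, with 4 of 11 tested members higher, 3 lower and 4 not called, and a median difference of -0.02. The 4 higher genes were Cyp2c54, Cyp2c66, Cyp2c37 and Cyp2c50. Cyp2c37, Cyp2c50 and Cyp2c54 encode closely related enzymes that oxidise arachidonic acid. Cyp2c54 measured 12.14, 12.36 and 12.54 (lowest, median and highest) on ketogenic arrays, against 11.51, 11.83 and 12.16 on chow arrays. Only the very ends of these ranges overlapped, and the difference of 0.54 ± 0.04 (adjusted p = 1.97e-11) was called at 6 of 6 times. Cyp2c66 measured 10.15, 10.41 and 10.58 on ketogenic arrays, against 9.63, 9.89 and 10.21 on chow arrays. Its difference was 0.49 ± 0.05 (adjusted p = 2.22e-09), again called at 6 of 6 times. The differences of Cyp2c37 (0.47 ± 0.05, adjusted p = 1.31e-08) and Cyp2c50 (0.43 ± 0.04, adjusted p = 2.32e-09) had the same sign at 6 of 6 times.

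Cyp2c70, the mouse enzyme that makes muricholic acids from chenodeoxycholic acid, was lower in ketogenic liver. It measured 11.29, 11.93 and 12.38 on ketogenic arrays, against 12.15, 12.54 and 13.01 on chow arrays. The ketogenic range lay mostly below the chow range. The difference was -0.67 ± 0.06, a 1.60-fold lower level (adjusted p = 6.63e-10), and ranged from -1.19 at ZT8 to -0.32 at ZT12. Cyp2c29, an abundant liver enzyme known to respond to CAR activators, was lower by 0.41 ± 0.05 (adjusted p = 2.30e-08) with a negative sign at 6 of 6 times. Cyp2c67 differed by -0.23 ± 0.05 (adjusted p = 0.000896), with a negative sign at 5 of 6 times. In chromosomal order along the cluster on chromosome 19, Cyp2c37, Cyp2c54 and Cyp2c50 (all higher) stood next to each other, with Cyp2c68 (-0.08, adjusted p = 0.285, not called) and then Cyp2c67 (lower) on one side and Cyp2c70 (lower) on the other.

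In the Cyp2d subfamily, 1 of 8 tested members was higher in ketogenic liver, 3 were lower and 4 were not called. Cyp2d40 measured 10.21, 10.54 and 10.75 on ketogenic arrays, against 10.87, 11.18 and 11.48 on chow arrays. Every ketogenic array lay below every chow array. Cyp2d40 was the only 1 of the 39 members tested in liver with such separated ranges, which 0.931% of all genes had. Its difference of -0.69 ± 0.05, a 1.61-fold lower level (adjusted p = 5.03e-11), was called at 6 of 6 times. Cyp2d26 measured 13.19, 13.24 and 13.31 on ketogenic arrays, against 13.09, 13.12 and 13.21 on chow arrays. Its rise was small, at 0.11 ± 0.02 (adjusted p = 6.98e-06), but had the same sign at 6 of 6 times. Cyp2d22 differed by -0.10 ± 0.03 (adjusted p = 0.00192), and the pseudogene Cyp2d37-ps by -0.09 ± 0.04 (adjusted p = 0.0481, lost in 18 of 36 fits that each left out 1 array). Cyp2d9, the male-predominant testosterone hydroxylase, differed by 0.00 ± 0.04 and was not called.

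Among the remaining CYP2 genes of liver, Cyp2a5, Cyp2e1 and Cyp2j5 rose and Cyp2u1 fell. Cyp2a5, which oxidises coumarin and nicotine, measured 10.75, 11.98 and 12.53 on ketogenic arrays, against 10.60, 11.66 and 12.00 on chow arrays. The difference was 0.28 ± 0.06 (adjusted p = 0.000662). Cyp2e1, which oxidises ethanol and acetone, measured 13.37, 13.57 and 13.65 on ketogenic arrays, against 13.33, 13.41 and 13.50 on chow arrays. Its rise of 0.14 ± 0.02 (adjusted p = 3.74e-06) was positive at 6 of 6 times, from 0.01 at ZT0 to 0.25 at ZT16. Cyp2j5, an arachidonic acid epoxygenase, differed by 0.12 ± 0.02 (adjusted p = 4.24e-05). Cyp2u1, a hydroxylase of long-chain fatty acids, differed by -0.35 ± 0.06 (adjusted p = 4.48e-05) with a negative sign at 6 of 6 times. Cyp2f2, Cyp2r1 (a hydroxylase of vitamin D), Cyp2j6 and Cyp2j9 were not called, and the differences of these 4 genes lay between -0.08 and 0.03.

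The Cyp3a subfamily changed little in liver, with 2 of 6 members higher, none lower and 4 not called, and a median difference of 0.07. Cyp3a13 measured 10.58, 10.84 and 11.27 on ketogenic arrays, against 10.44, 10.62 and 11.03 on chow arrays, a difference of 0.22 ± 0.04 (adjusted p = 2.97e-05). Cyp3a57 differed by 0.20 ± 0.08 (adjusted p = 0.0326), and this call was lost in 10 of 36 fits that each left out 1 array and without the 2 chow arrays, ZT8 replicate 12 and ZT12 replicate 17, whose clock genes disagreed with their labelled time in an earlier analysis of these data (0.18, adjusted p = 0.0649). Cyp3a11, the main steroid and drug hydroxylase of the subfamily and the standard target of PXR, measured 11.67, 12.15 and 12.48 on ketogenic arrays, against 11.77, 12.13 and 12.51 on chow arrays. Its difference of 0.04 ± 0.06 (adjusted p = 0.572) and that of Cyp3a25, -0.05 ± 0.05 (adjusted p = 0.404), were not called.

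Of the 16 members below the liver filter, 2 were higher, the above Cyp2b10 and Cyp2b13, and 1 was lower in the fit without it, against 18.6% and 17.6% of all genes in that fit. The lower one was Cyp2c55, at 5.63 in ketogenic liver and 6.52 in chow liver, a difference of -0.90 ± 0.09 (adjusted p = 1.18e-08). Counted at single times, 9, 8, 9, 11, 13 and 12 of the 39 liver members were called at ZT0, 4, 8, 12, 16 and 20, against 5.35%, 4.26%, 7.95%, 6.16%, 12.5% and 21.1% of all genes. Cyp2b9, which passed the filter only through its ketogenic level, was among them at all 6 times.

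**Figure D2:**
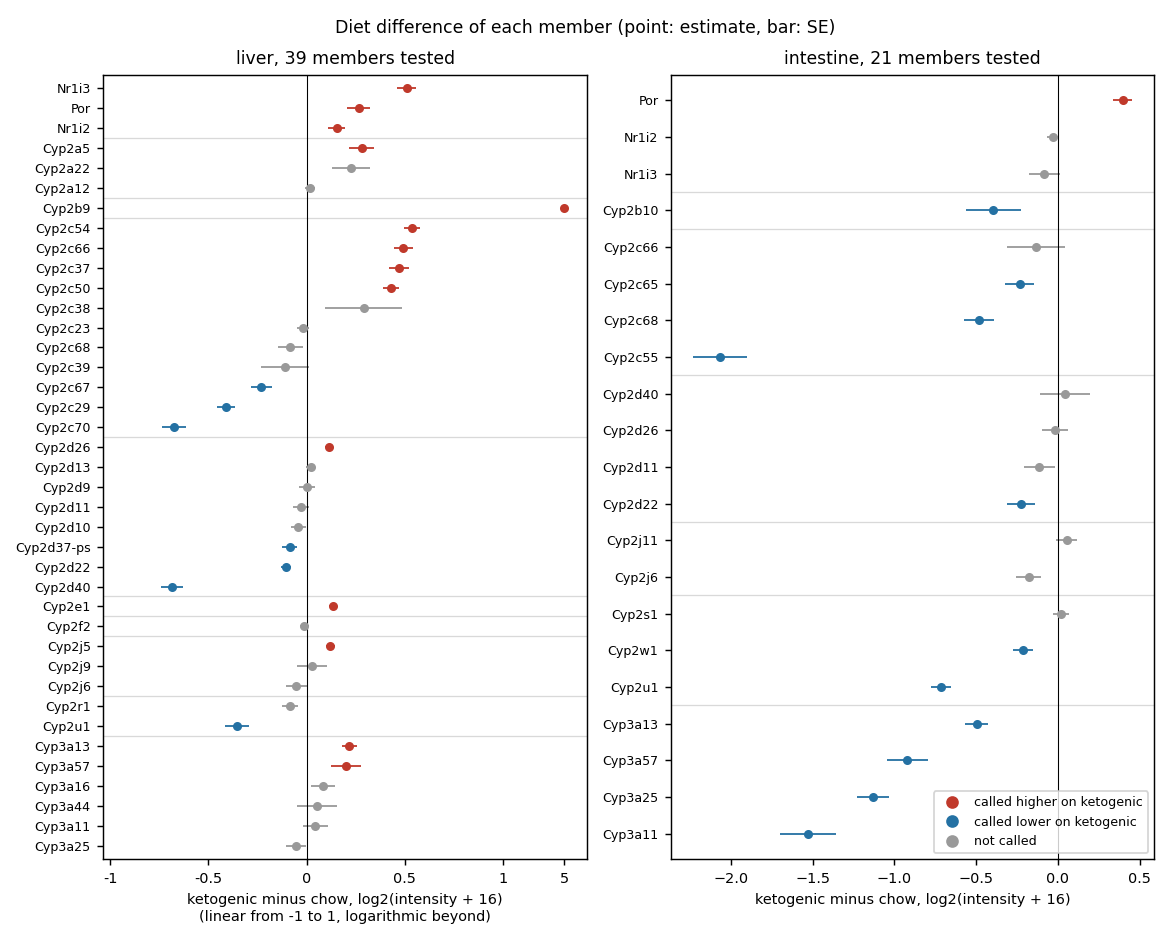
The difference ketogenic minus chow is plotted for the 39 members tested in liver (left panel, with an axis that is logarithmic beyond 1) and the 21 tested in intestine (right panel), grouped by subfamily; points are limma estimates and bars are SE. All 4 Cyp3a members tested in intestine lie between -1.53 and -0.50, and the 6 Cyp3a members in liver lie between -0.05 and 0.22.

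In intestine, the calls were mostly of lower levels on the ketogenic diet, and Cyp2c55, Cyp3a11, Cyp3a25, Cyp3a57 and Cyp2u1 moved furthest. Lower levels were called for 11 of the 21 members tested, against 31.2% of all genes tested, and a higher level for 1, Por, against 19.7%. That made 12 of 21 called, against 50.9%, and the other 9 were not called. The median difference was -0.22 over the members and -0.02 over all genes. At least 1.5-fold lower levels were reached by 5 members, as by 0.818% of all genes, and at least 1.5-fold higher levels by none (0.473%). Over all genes, 38.68% of the intestine calls were higher ones, and 50.84% after quantile normalization.

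Por was the only member called higher in ketogenic intestine, as it was in liver. It measured 10.20, 10.83 and 11.39 (lowest, median and highest) on ketogenic arrays, against 9.84, 10.50 and 11.02 on chow arrays. The ranges overlapped over much of their length. The difference was 0.40 ± 0.06, or 1.32-fold (adjusted p = 2.93e-06), with a positive sign at 5 of 6 times and a span from -0.21 at ZT8 to 1.00 at ZT0. The ketogenic ZT0 arrays lay at 11.39 (replicate 1, one of the 3 of high residual spread), 10.83 and 10.79. Without those 3 arrays, Por was still called at ZT0. The receptor genes were not called. Nr1i2 measured 10.25, 10.49 and 10.81 on ketogenic arrays, against 10.43, 10.53 and 10.72 on chow arrays, a difference of -0.03 ± 0.03 (adjusted p = 0.435). Nr1i3 measured 7.28, 8.07 and 9.02 on ketogenic arrays, against 7.72, 8.19 and 8.57 on chow arrays, a difference of -0.08 ± 0.10 (adjusted p = 0.483, and 0.0499 without the 3 arrays of high residual spread).

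All 4 Cyp3a members that passed the intestine filter fell, with a median difference of -1.03. Cyp3a11 (probe set of its own, apart from those shared with Cyp3a41a, Cyp3a41b and Cyp3a44) measured 7.25, 8.97 and 10.59 on ketogenic arrays, against 9.40, 10.47 and 11.57 on chow arrays. The highest ketogenic array, ZT0 replicate 1, was one of the 3 with a high residual spread, and it lay above the chow median. The difference was -1.53 ± 0.17, a 2.89-fold lower level (adjusted p = 3.63e-08), with a negative sign at 6 of 6 times. Cyp3a25, a CYP3A enzyme found in mouse liver and gut, measured 9.79, 10.50 and 11.03 on ketogenic arrays, against 11.31, 11.55 and 11.93 on chow arrays. Every ketogenic array lay below every chow array, as for 0.313% of all genes. Its difference was -1.13 ± 0.10, a 2.19-fold lower level (adjusted p = 5.39e-10), and was called at 5 of 6 times. Cyp3a57 measured 6.53, 7.30 and 8.24 on ketogenic arrays, against 7.62, 8.24 and 8.59 on chow arrays. It differed by -0.92 ± 0.12, or 1.89-fold (adjusted p = 8.62e-07), with the median of the chow arrays at the top of the ketogenic range. As the probe sets of Cyp3a25 and Cyp3a57 may each bind the other's transcript, the falls of these genes may not be separate. Cyp3a13, known for its expression in mouse intestine, measured 10.83, 11.31 and 11.89 on ketogenic arrays, against 11.30, 11.81 and 12.24 on chow arrays. The ranges overlapped, and the difference was -0.50 ± 0.07 (adjusted p = 1.98e-06) with a negative sign at 6 of 6 times.

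These 4 genes share a subfamily and a chromosome and differed in the size of their response, so their promoters are shown in the same way, with AGGTCA and the HNF4A-type element CAAAGTCCA in capitals on either strand (TGACCT is AGGTCA read on the other strand). The windows are chr5:145879855-145880054 (minus strand), chr5:146009619-146009818 (minus strand), chr5:145345069-145345268 (plus strand) and chr5:137921620-137921819 (minus strand).
Cyp3a11: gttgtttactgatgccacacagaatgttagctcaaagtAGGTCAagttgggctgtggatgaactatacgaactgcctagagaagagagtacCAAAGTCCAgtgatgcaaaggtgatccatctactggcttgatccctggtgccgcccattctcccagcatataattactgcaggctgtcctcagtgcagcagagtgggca
Cyp3a25: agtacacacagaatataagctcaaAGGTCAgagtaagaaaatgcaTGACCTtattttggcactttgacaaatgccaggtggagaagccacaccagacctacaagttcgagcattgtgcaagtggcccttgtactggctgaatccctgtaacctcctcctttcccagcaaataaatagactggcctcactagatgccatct
Cyp3a57: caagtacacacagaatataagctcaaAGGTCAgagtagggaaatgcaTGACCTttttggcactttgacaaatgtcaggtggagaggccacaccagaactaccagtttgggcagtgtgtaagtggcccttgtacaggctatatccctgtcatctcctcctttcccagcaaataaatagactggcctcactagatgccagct
Cyp3a13: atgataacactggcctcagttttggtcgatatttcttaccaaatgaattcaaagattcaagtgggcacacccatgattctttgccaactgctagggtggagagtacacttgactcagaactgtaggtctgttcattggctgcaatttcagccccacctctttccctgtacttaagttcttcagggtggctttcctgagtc
Cyp3a25 and Cyp3a57 were 90.1% identical over this window and carried AGGTCA in both orientations, whereas Cyp3a11 carried it once, at -162 to -157, with CAAAGTCCA at -109 to -101. Neither string occurred in the Cyp3a13 window, which shared 54.1% of aligned positions with that of Cyp3a25. AGGTCA occurred on either strand of this 200-base window in 13 of the 46 members with an entry in the RefSeq promoter table and in 11.2% of its 27025 genes. CAAAGTCCA occurred in 6 of the 46 members and in 0.318% of all genes. Related members share such letters, as Cyp2b9 with Cyp2b13 and Cyp3a25 with Cyp3a57 did for AGGTCA. The matches are therefore not independent, and these shares are no test of enrichment. No 2 matches overlapped in the windows shown, and a match describes letters, not a bound site.

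Cyp2c55, an arachidonic acid hydroxylase known to be inducible in mouse liver and gut, had the largest intestinal difference of all members. It measured 7.36, 8.29 and 9.10 on ketogenic arrays, against 8.18, 10.64 and 11.23 on chow arrays. The overlap came from 2 chow arrays of ZT12, at 8.18 and 8.84, while the other 16 chow arrays lay at 9.63 or above. The difference was -2.07 ± 0.16, a 4.19-fold lower level (adjusted p = 6.55e-11), and was called at 5 of 6 times. Cyp2u1 measured 9.06, 9.63 and 10.72 on ketogenic arrays, against 9.62, 10.39 and 11.17 on chow arrays. The ranges overlapped, and the gene varied with time on both diets. Its difference of -0.71 ± 0.06, a 1.64-fold lower level (adjusted p = 3.83e-10), was negative at 6 of 6 times.

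The other intestinal declines were smaller. Cyp2c68 differed by -0.48 ± 0.09 (adjusted p = 9.87e-05), with a negative sign at 6 of 6 times, and Cyp2w1 by -0.22 ± 0.06 (adjusted p = 0.005). The calls of 3 genes depended on single arrays or settings. Cyp2c65 differed by -0.23 ± 0.09 (adjusted p = 0.0289, lost in 5 of 36 fits without 1 array and with quantile normalization, -0.18, adjusted p = 0.0789), and Cyp2d22 by -0.23 ± 0.08 (adjusted p = 0.0266, and 0.0603 without the 2 arrays of high hepatocyte markers, one of which, ketogenic ZT20 replicate 10, ended the call when left out alone, and 0.0994 with quantile normalization). Cyp2b10, at 8.14, 10.24 and 11.37 on ketogenic arrays against 9.21, 10.57 and 11.64 on chow arrays, differed by -0.40 ± 0.17 (adjusted p = 0.0494). This call was lost in 24 of 36 such fits and under 7 of 11 other alternatives, among them the fit without the 2 arrays of high hepatocyte markers. The sign was negative at 4 of 6 times for Cyp2b10 and at 3 of 6 for Cyp2d22. Cyp2c66, Cyp2d11, Cyp2d26, Cyp2d40, Cyp2j6, Cyp2j11 and Cyp2s1 were not called, with differences between -0.18 and 0.05. Without the 3 arrays of high residual spread, Cyp2d11 (-0.25, adjusted p = 0.00162) and Cyp2j6 (-0.26, adjusted p = 0.00149) were called lower. Cyp2j6 was also called with the replicate number as a block (-0.19, adjusted p = 0.0283), and in 15 of 47 alternatives in all. Cyp2c66 ranged from 14.31 to 16.44 on ketogenic arrays and from 13.91 to 16.41 on chow arrays, and these values include the largest intensity of the whole table.

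Of the 34 members below the intestine filter, none was higher and 4 were lower in the fit without it, against 18.4% and 20.0% of all genes in that fit: Cyp3a44 (-1.18), Cyp2j9 (-0.39), Cyp2c23 (-0.28) and Cyp2r1 (-0.27). Values this low may be background. At single times, 5, 4, 5, 0, 7 and 6 of the 21 members were called at ZT0, 4, 8, 12, 16 and 20, against 9.80%, 3.41%, 7.06%, 1.66%, 7.82% and 6.35% of all genes. These 27 calls became 52 without the 3 arrays of high residual spread, with 8, 7, 15, 4, 9 and 9 at the 6 times, against 8.35%, 7.69%, 26.4%, 7.53%, 17% and 8.34% of all genes in that fit. At ZT12 the difference of Cyp2c55 was -1.31, the smallest of its 6 times.

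Some enterocyte markers were also lower in ketogenic intestine. The mean over 8 enterocyte markers was 11.97, 12.19 and 12.55 (lowest, median and highest) on ketogenic intestine arrays, against 12.39, 12.50 and 12.65 on chow arrays. Of the 8 markers, 5 were lower, against 31.2% of all genes, led by Lct (-1.06), Slc5a1 (-0.54) and Sis (-0.39). Fabp2, Alpi and Cdh17 were not called, and the median of the 8 was -0.10. Whether these markers follow the number of enterocytes or respond to the diet themselves was not tested. In the lists of other cells, where 19.7% of all genes were higher and 31.2% lower, the counts were as follows. Of 6 goblet, Paneth and enteroendocrine markers 2 were lower (median -0.09), of 5 hepatocyte markers tested 2 were higher (median 0.11), and of 4 smooth muscle and stroma markers tested 2 were higher (median 0.11). The part of these shifts in the Cyp3a and Cyp2c55 differences was not tested. Hepatocyte markers averaged 7.98, 8.25 and 9.47 on ketogenic intestine arrays, against 7.50, 8.08 and 10.02 on chow arrays. Of the 7 measured, 5 passed the intestine filter, and whether their values there come from hepatocytes was not tested. Without the 2 arrays with the highest values, Cyp3a11 differed by -1.55, Cyp3a25 by -1.10 and Cyp2c55 by -2.08, and without the 3 arrays of high residual spread by -1.64, -1.22 and -2.11, so these differences were about as large without them.

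**Figure D3:**
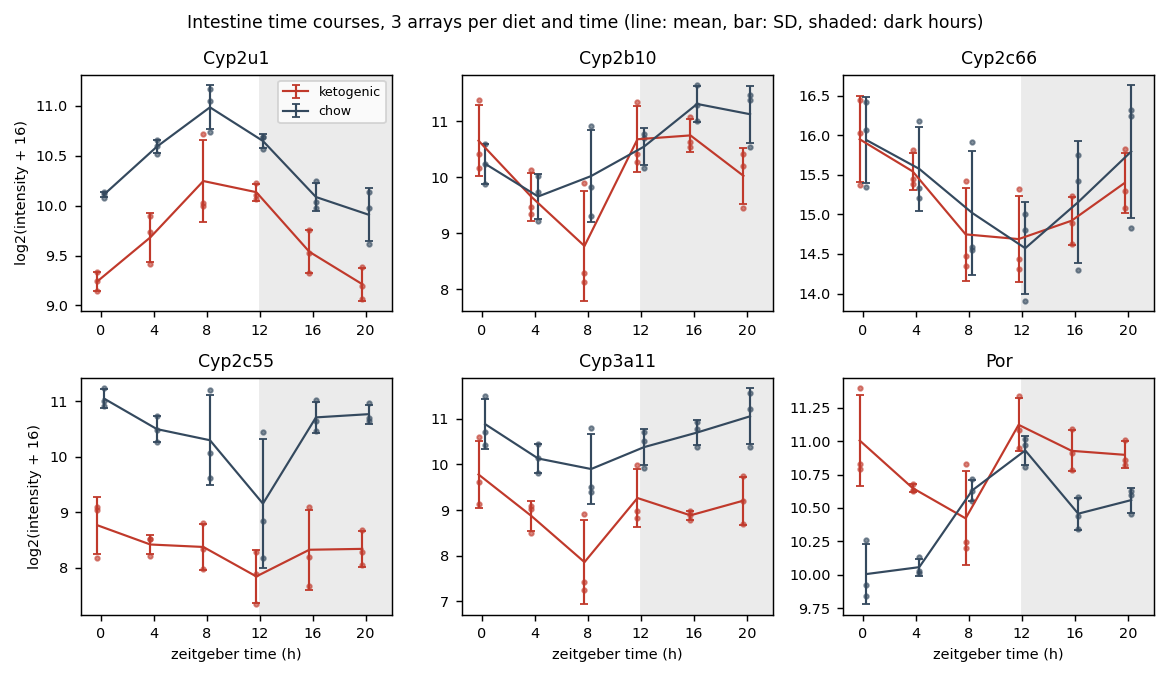
Array values (points) and group means ± SD (lines and bars, n = 3) of 6 members in intestine are plotted against zeitgeber time on ketogenic and chow diets, with the dark hours shaded. Cyp2u1 runs in parallel on both diets with a ketogenic level 0.71 lower, and Cyp2c55 on chow dips at ZT12. Por at ZT0 is low on chow and higher on the ketogenic diet, where the highest array, replicate 1, is one of those of high residual spread.

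The diet difference itself was compared between the tissues for the 15 members that passed in both. It was more positive in liver than in intestine for 9 of them, against 17.3% of 10871 genes, and more negative for 1, against 14.4%. All 4 Cyp3a genes of this set were among the 9. The liver difference exceeded the intestinal one by 1.57 ± 0.19 for Cyp3a11 (adjusted p = 1.22e-09), 1.12 ± 0.15 for Cyp3a57 (2.85e-08), 1.08 ± 0.12 for Cyp3a25 (5.57e-11) and 0.71 ± 0.08 for Cyp3a13 (3.77e-10). Cyp3a13 and Cyp3a57 were called higher on the ketogenic diet in liver and lower in intestine. Smaller excesses in liver were called for Cyp2c66 (0.63 ± 0.19, adjusted p = 0.00782), Cyp2c68 (0.40 ± 0.11, adjusted p = 0.00534) and Cyp2u1 (0.36 ± 0.09, adjusted p = 0.00147). Both receptor genes also differed, Nr1i3 by 0.59 ± 0.11 (adjusted p = 2.64e-05) and Nr1i2 by 0.19 ± 0.05 (adjusted p = 0.00514). Cyp2d40 went the other way, with a liver difference 0.73 ± 0.17 below the intestinal one (adjusted p = 0.000585). For Por, higher in both tissues, the difference between tissues was -0.13 (adjusted p = 0.241, and 0.0243 to 0.516 over the alternatives), and Cyp2d11, Cyp2d22, Cyp2d26 and Cyp2j6 were not called either. Without the 3 intestine arrays of high residual spread, those 4 were called, with values of 0.21 to 0.25 (adjusted p up to 0.0479).

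As for the levels, 45 members passed in at least 1 tissue, and all 45 differed between the tissues. In liver 35 were higher, against 45.6% of 14055 genes, and in intestine 10, against 45.5%. A gene that passed in 1 tissue only had to differ, so the 15 that passed in both were also counted apart. Of these, 11 were higher in liver, against 44.4% of 10871 genes, and 4 in intestine, against 44.7%. The Cyp2a genes, Cyp2e1 and Cyp2f2 passed in liver only. In intestine, Cyp2e1 measured 5.09, 5.65 and 8.94 on ketogenic intestine arrays and 5.29, 5.86 and 10.23 on chow intestine arrays, with its maxima on the 2 arrays where those markers were highest.

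Where a gene lay below the filter in the other tissue, its value there may be background, and the size is given as a bound against that tissue's filter level. Cyp2f2, which oxidises naphthalene, averaged 13.33 in liver and 5.66 in intestine, at least 92.6-fold higher in liver by this bound. Cyp2e1 averaged 13.48 in liver and 6.13 in intestine, and Cyp2c70 averaged 12.21 in liver and 4.79 in intestine, at least 103-fold and 42.5-fold higher in liver. Among the members measured above the filter in both tissues, Cyp2d40 had the largest liver excess (3.43 ± 0.09), followed by Nr1i3, Cyp2d22 and Cyp3a11 (2.43 ± 0.10). Nr1i3 averaged 11.05 in liver and 8.16 in intestine (2.89 ± 0.06), and Por 11.38 in liver and 10.64 in intestine (0.74 ± 0.04). PXR mRNA ran the other way, with Nr1i2 at 10.20 in liver and 10.52 in intestine, a difference of -0.32 ± 0.03 (adjusted p = 2.55e-16). For the members above the filter in both tissues, limma's adjusted p-values of the level difference were at most 2.55e-16. Those of the other genes are not given, as these genes had to differ.

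Of the 10 members higher in intestine, 3 were Cyp2c genes. Cyp2c66 averaged 10.15 in liver and 15.27 in intestine (-5.12 ± 0.10), above the filter in both. Cyp2c65 averaged 4.20 in liver, near the pseudocount's own log2, and 10.69 in intestine, at least 14.4-fold lower in liver. Cyp2b10 averaged 5.67 in liver and 10.28 in intestine, at least 10.9-fold lower in liver. Cyp2s1, an enzyme of epithelia outside the liver, averaged 6.24 in liver and 10.40 in intestine, at least 11.8-fold lower in liver, and Cyp2c55 averaged 6.08 in liver and 9.38 in intestine, at least 5.81-fold lower in liver. Cyp2j6 (-0.91), Cyp3a13 (-0.80) and Nr1i2 passed in both tissues, and Cyp2w1 and Cyp2j11 lay just above the filter in intestine and just below it in liver. Within each of Cyp2c, Cyp2j and Cyp3a there were thus members higher in liver and members higher in intestine. For Cyp2b the liver member was Cyp2b9, which on the ketogenic diet was at least 18.7-fold higher in liver by the same bound and on chow lay below the filter in both tissues.

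**Figure D4:**
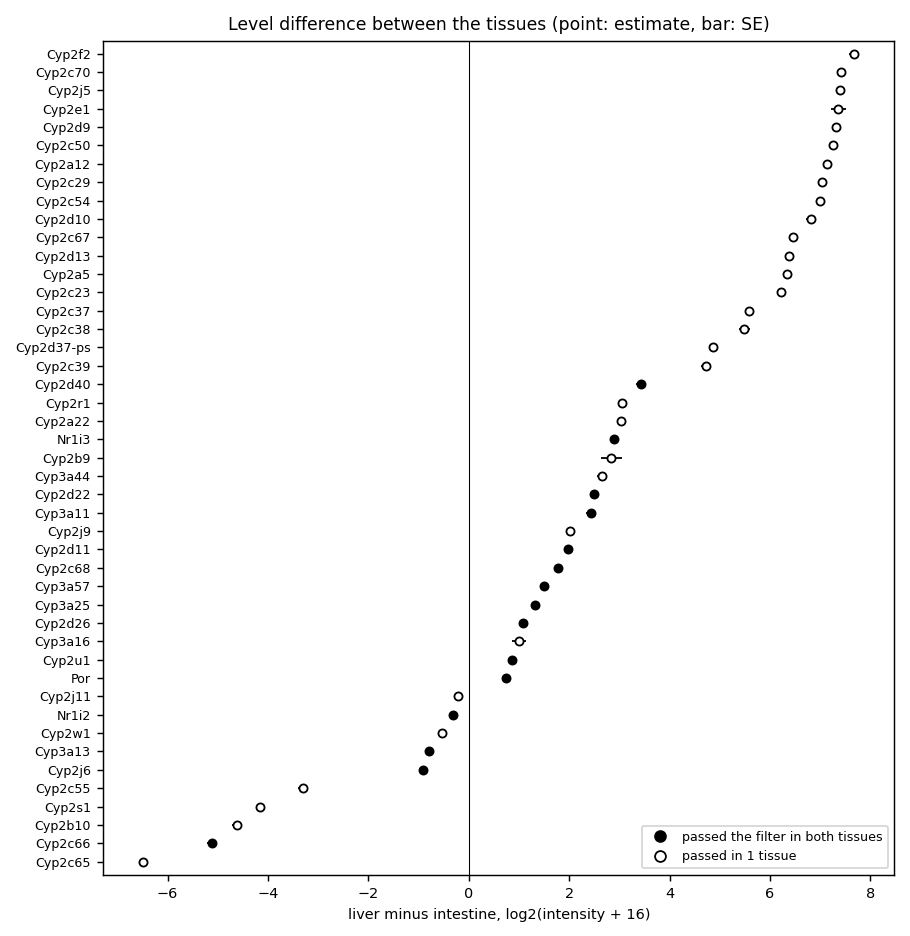
The level difference liver minus intestine on the log2(intensity + 16) scale is plotted for the 45 members that passed in at least 1 tissue, in order of size, with SE bars; filled points passed in both tissues, and open points rest on a value below the filter in 1 tissue, so their sizes are not exact. Filled points run from 3.43 (Cyp2d40) to -5.12 (Cyp2c66), and 10 members lie below 0.

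Rhythms over the day were fitted as a 24 h cosine on each diet. In liver, 17 of the 39 members were rhythmic on the ketogenic diet, against 36.5% of all genes, and 8 on chow, against 17.6%. Both shares were near those of all genes. A test of any difference between times called 9 on the ketogenic diet, against 25.8% of all genes, and 7 on chow, against 10.0%. The 7 rhythmic on both diets (12.7% of all genes) were Cyp2a5, Cyp2d13, Cyp2e1, Cyp2u1, Cyp3a13, Nr1i2 and Por. The chow rhythm of Cyp2e1 (adjusted p = 0.0476 in limma) was lost in 26 of 36 fits without 1 array and under 6 of 9 other alternatives. That of Cyp2d13 was lost in 6 of 36 such fits on chow and in 5 of 36 on the ketogenic diet. Of the 17 ketogenic peaks, 14 (82.4%) fell between ZT10 and ZT18, against 19.5% of the peaks of all 4553 genes rhythmic on that diet. The window was chosen after the peaks were seen, which favours the members, so the comparison is no test. Among the 14, the rhythms of Cyp2f2, Cyp2c67 and Cyp2c68 were lost in 24, 6 and 5 of 36 fits without 1 array.

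Por had the smallest rhythm p of the liver members on both diets. Its group means at ZT0, 4, 8, 12, 16 and 20 were 10.86, 11.24, 11.85, 12.25, 11.72 and 11.18 on the ketogenic diet, against 10.62, 11.15, 11.71, 11.75, 11.39 and 10.89 on chow. On both diets the gene climbed through the light hours and was highest at ZT12. The fitted amplitude was 0.66 ± 0.06 with a peak at ZT11.7 on the ketogenic diet (adjusted p = 2.42e-10) and 0.58 ± 0.06 with a peak at ZT10.9 on chow (9.83e-09). Cyp2a5 had group means of 11.02, 11.58, 12.17, 12.38, 12.18 and 11.90 on the ketogenic diet, against 11.04, 11.47, 11.90, 11.92, 11.65 and 11.56 on chow. The diets started level at ZT0 and were furthest apart at ZT16. Its amplitude was 0.61 ± 0.08 on the ketogenic diet (peak at ZT12.6, adjusted p = 7.02e-07) and 0.38 ± 0.08 on chow (peak at ZT11.5, adjusted p = 0.00149). Cyp2u1 peaked in the light hours, with amplitudes of 0.39 ± 0.06 on the ketogenic diet (ZT5.9, adjusted p = 4.14e-05) and 0.29 ± 0.06 on chow (ZT3.7, adjusted p = 0.00401).

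Several liver rhythms passed the test on the ketogenic diet and not on chow, but the difference between the diets was not called for them. The amplitude of Nr1i3 was 0.34 ± 0.05 on the ketogenic diet (peak at ZT12.1, adjusted p = 1.22e-05) and 0.11 ± 0.05 on chow (adjusted p = 0.264), and the test of the difference gave an adjusted p of 0.0987. That of Cyp2c70 was 0.37 ± 0.07 on the ketogenic diet (ZT16.3, adjusted p = 0.000331) and 0.03 ± 0.07 on chow (adjusted p = 0.933), with 0.13 for the difference. Cyp2b9 had the largest fitted amplitude on the ketogenic diet, 1.23 ± 0.44, and 0.19 ± 0.44 on chow, with neither called (adjusted p = 0.0743 and 0.951). Nr1i2 was rhythmic on both diets with amplitudes of 0.26 ± 0.04 on the ketogenic diet and 0.25 ± 0.04 on chow and peaks at ZT13.9 and ZT10.0, and the difference had an adjusted p of 0.0674. Cyp3a13 had amplitudes of 0.30 ± 0.04 on the ketogenic diet and 0.18 ± 0.04 on chow, both called, and Cyp2j9 one of 0.31 ± 0.08 on chow (peak at ZT5.1, adjusted p = 0.0183, lost without ZT4 replicate 6 or ZT16 replicate 9).

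A difference in rhythm was called for 2 liver members, against 1.19% of all genes, and both amplitudes were small. Cyp2e1 peaked at ZT13.0 with an amplitude of 0.07 on the ketogenic diet, against ZT4.6 with 0.06 on chow (adjusted p = 0.0372). Its group means were 13.46, 13.51, 13.58, 13.61, 13.60 and 13.56 on the ketogenic diet, against 13.46, 13.47, 13.45, 13.41, 13.35 and 13.37 on chow. The diets were level at ZT0. Their difference had grown to 0.20 by ZT12, was largest at ZT16 (0.25) and was 0.18 at ZT20. Cyp2d13 peaked at ZT13.7 on the ketogenic diet, against ZT22.9 on chow, with amplitudes of 0.08 and 0.09 (adjusted p = 0.0447). The calls were lost in 14 and 19 of 36 fits without 1 array, and the number of members called ran from 0 to 7 over them. No member passed the diet by ZT interaction test over all 6 times (lowest adjusted p = 0.0968), which 0.353% of all genes passed.

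**Figure D5:**
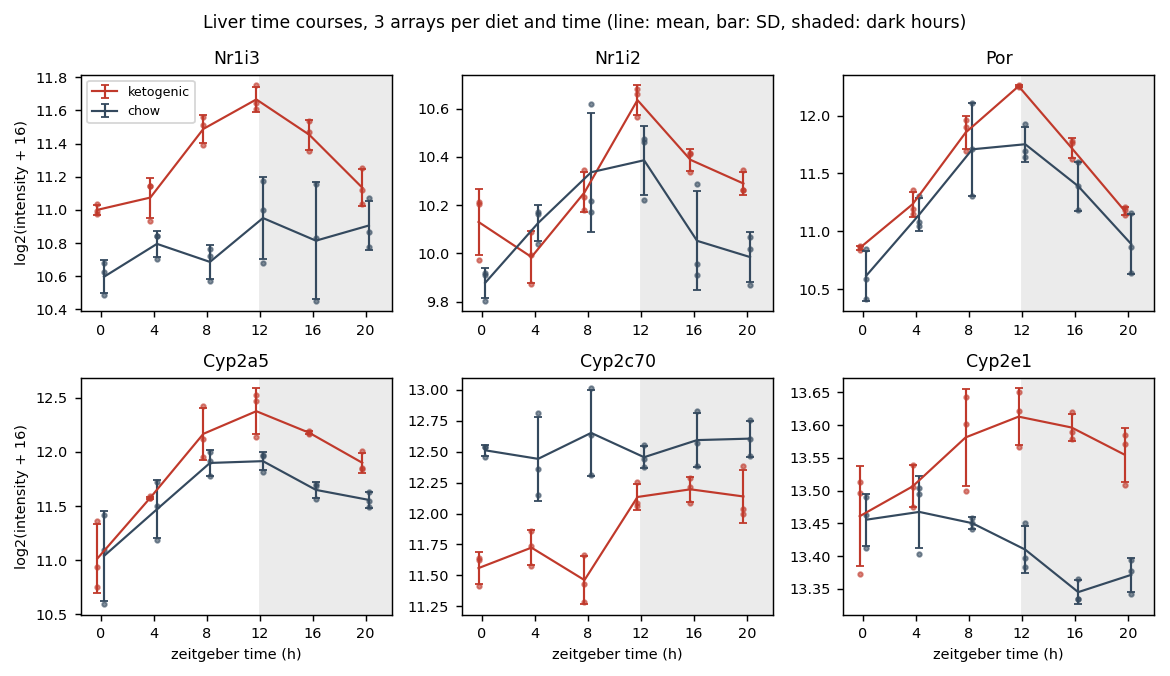
Array values (points) and group means ± SD (lines and bars, n = 3) of 6 members in liver are plotted against zeitgeber time on ketogenic and chow diets, with the dark hours shaded. Por is highest at ZT12 on both diets, Cyp2c70 on the ketogenic diet is lowest at ZT8, and Cyp2e1 is level between the diets at ZT0 and apart by 0.25 at ZT16.

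In intestine, 3 of the 21 members were rhythmic on the ketogenic diet, against 14.6% of all genes, and 5 on chow, against 8.87%. Without the 3 arrays of high residual spread they numbered 5 on the ketogenic diet, against 18.0% of all genes in that fit, and 9 on chow, against 15.4%. A test of any difference between times called 8 on the ketogenic diet, against 12.5% of all genes, and 4 on chow, against 4.77%. Cyp2u1, Cyp2b10 and Cyp2c66 were rhythmic on both diets, as were 5.62% of all genes. Cyp2u1 had group means of 9.24, 9.68, 10.25, 10.14, 9.54 and 9.21 at ZT0, 4, 8, 12, 16 and 20 on the ketogenic diet, against 10.11, 10.59, 10.99, 10.65, 10.09 and 9.91 on chow. The gene was highest at ZT8 on both diets, lower on the ketogenic diet at every time. Its amplitude was 0.56 ± 0.06 on the ketogenic diet (adjusted p = 4.38e-08) and 0.53 ± 0.06 on chow (adjusted p = 1.8e-07). Cyp2c66 peaked at ZT24.0 with an amplitude of 0.63 ± 0.16 on the ketogenic diet (adjusted p = 0.0206, lost without ZT0 replicate 1 or ZT12 replicate 11) and at ZT23.4 with 0.66 ± 0.16 on chow (adjusted p = 0.0201, lost without ZT0 replicate 2 or ZT12 replicate 17). Cyp2b10 peaked at ZT18.1 with 0.68 ± 0.20 on the ketogenic diet (adjusted p = 0.0464, lost in 21 of 36 fits without 1 array) and at ZT17.1 with 0.82 ± 0.20 on chow (adjusted p = 0.0177, lost without ZT4 replicate 25).

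Cyp2c55 and Por passed the rhythm test on chow and not on the ketogenic diet. Cyp2c55 had an amplitude of 0.32 ± 0.18 on the ketogenic diet (adjusted p = 0.416) and 0.70 ± 0.18 on chow (adjusted p = 0.0225, lost without chow ZT12 replicate 17 or 18). Por had 0.22 ± 0.08 on the ketogenic diet (adjusted p = 0.126, but called without the 3 arrays of high residual spread) and 0.40 ± 0.08 with a peak at ZT12.9 on chow (adjusted p = 0.00202). In limma, 0 of the 21 members were called for a rhythm difference (0.0401% of all genes), and 2 had an unadjusted p under 0.05 (6.32% of all genes), Por (0.00355, adjusted 0.422) and Nr1i3 (0.0247). No intestine member passed the diet by ZT interaction test (lowest adjusted p = 0.0941), which 0.0321% of all genes passed.

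The authors' deposited table of JTK q-values put 8 of the 39 liver members under 0.05 on the ketogenic diet, against 20.8% of all genes tested with a value there, and 4 on chow, against 4.79%. In intestine the authors' deposited table put 1 of the 21 members under 0.05 on the ketogenic diet, against 4.11%, and 2 on chow, against 6.21%. For Por in liver the authors' deposited table gave a JTK q of 6.9e-05 on the ketogenic diet and 0.004679 on chow, and for Nr1i3 it gave 0.001195 and 1.0. The BioCycle q-values in the authors' deposited table were above 0.05 for all of these members in both tissues. Of all genes, 0.824% on the ketogenic diet and 0.703% on chow were under 0.05 in liver, and 0% and 0.178% in intestine. The absence of members is therefore no result about them.

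Genes that work with the P450 enzymes were counted in the same way, against 19.3% higher and 29% lower among all genes tested in liver and 19.7% higher and 31.2% lower in intestine. Among 13 electron partner and heme synthesis genes, all tested in liver, 8 were higher and 3 lower, with a median of 0.09 against -0.03 for all genes. Alas1, the first enzyme of heme synthesis, differed by 0.42 ± 0.13 (adjusted p = 0.00885), and cytochrome b5 reductase (Cyb5r3) by -0.37 ± 0.03 (adjusted p = 1.54e-10). In intestine 1 of 12 was higher and 6 were lower, with a median of -0.09. Of 8 tested targets of the receptors outside CYP2 and CYP3, 2 were higher and 2 lower in liver (median 0.06), and 1 was higher and 6 lower in intestine (median -0.36). Abcc3, an exporter of conjugates in the basolateral membrane, averaged 11.73 in ketogenic liver and 10.75 in chow liver, a difference of 0.98 ± 0.10, or 1.97-fold (adjusted p = 3.78e-09). In intestine it was higher as well, by 0.56 ± 0.05 (adjusted p = 7.57e-10). Gstm3, a glutathione transferase, averaged 10.64 in ketogenic intestine and 11.63 in chow intestine (-0.99 ± 0.11, adjusted p = 2.79e-08), and the carboxylesterase Ces2a 9.94 in ketogenic intestine and 10.91 in chow intestine (-0.97 ± 0.08, adjusted p = 6.38e-11).

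Of 16 transcription factors that act on P450 genes, 3 were higher and 4 lower in liver (median -0.03), and of 14 tested in intestine none was higher and 10 were lower (median -0.20), against 19.7% higher and 31.2% lower among all genes, a balance that shifted with quantile normalization as given above. The clock-controlled factors Dbp and Nr1d1 fell in ketogenic intestine by 0.74 and 0.61, with adjusted p of 9.4e-08 and 2.71e-08. Of genes known for higher expression in female mouse liver, 4 were tested in liver, with 2 higher and none lower (median 0.10), and one of the 2 was Cyp2b9 itself. That gene passed the filter only through its ketogenic level and had to differ. Of 9 genes known for higher expression in male liver, 3 were higher and 2 lower (median 0.00). Hepatocyte markers in liver had 3 of 7 lower and a median of -0.00.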

How the data were processed

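Per the labels, RNA of 72 samples was hybridised to 1-colour Affymetrix arrays. The deposited value table holds each probe set's linear intensity, which per the submitters' processing notes came from Affymetrix Expression Console 1.1.1 with PLIER, so values are already background-corrected and summarised by the authors. The deposited rhythm tables hold the authors' JTK and BioCycle q-values (p-values after adjustment), with settings not given in the sources used here. Intensities were transformed here to log2(deposited intensity + 16) with no further normalization. The median intensity of an array lay between 105 and 119 in liver and between 107 and 121 in intestine. The number of arrays limits the precision. Of 35556 probe sets, 23163 carried 1 symbol, from the platform table or, for 1374, the deposited workbook (2 members, Por and Cyp2a5, came from the workbook), and 1621 with several symbols and 10772 with none were left out. Each gene kept the probe set with the highest mean, and every member had 1.

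limma 3.58.1 (R 4.3.3) fitted 12 diet and time groups per tissue, 24 over both, and 24 h cosinors, with Benjamini-Hochberg adjustment over all genes tested. SE are limma's. The methods were tested on simulated data. No 2 arrays were identical (highest correlation 0.99472), and no value column was left unmapped. The members and lists were chosen with earlier results of these data known. Named in full were members called with at least 1.5-fold and the 3 partners, others by count with examples of small adjusted p. The planned naming of members by highest level was dropped, since probe sets have no common scale. For rhythms, the largest amplitudes and each rhythm difference were named, and for levels the members higher in intestine. Alternatives covered filters, pseudocount, normalization, the moderated variance, probe set averaging, a replicate block, arrays left out and other rhythm tests, and 1, without the 2 intestine arrays with high hepatocyte markers, was chosen after seeing the data. The labels do not say whether equal replicate numbers mark the same animal, so the samples were not treated as pairs.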

Additional observations from a re-analysis of the deposited data

Results flagged for a closer look

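The diet difference (ketogenic minus chow) differed between liver and intestine, by limma's test of the difference itself, for 10 of the 15 members that passed in both tissues. The liver minus intestine values were 1.57 for Cyp3a11, 1.12 for Cyp3a57, 1.08 for Cyp3a25, 0.71 for Cyp3a13, 0.63 for Cyp2c66, 0.59 for Nr1i3, 0.40 for Cyp2c68, 0.36 for Cyp2u1, 0.19 for Nr1i2 and -0.73 for Cyp2d40. All 10 stayed past the threshold with the same sign in each alternative where both tissues were fitted and the gene was tested. Cyp2d40 and Cyp3a57 were not tested with the filter at the 60th percentile. Single arrays were not left out in turn for this comparison, unlike for the diet differences within a tissue. Of all genes, 17.3% were called more positive in liver and 14.4% more negative.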

How the results depend on the processing

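No member's called diet or level difference changed sign under any alternative. Of 33 called diet differences, 28 kept their call throughout. Of 33 called rhythms, 17 kept it in every fit that left out 1 array (16 lost it in at least 1) and 23 under the other alternatives (10 lost it). The 5 diet calls lost in at least 1 fit were Cyp2b10, Cyp2c65 and Cyp2d22 in intestine and Cyp2d37-ps and Cyp3a57 in liver. With a minimum of 1.5-fold, the calls were 1 higher and 2 lower in liver (14 and 7 without it) and 0 higher and 5 lower in intestine (1 and 11). Leaving out 1 array at a time gave 13 to 15 higher and 6 to 8 lower in liver and 1 to 1 higher and 9 to 12 lower in intestine. Calls at single times numbered 62 in liver (53 to 63 with 1 array left out) and 27 in intestine (23 to 41), and 52 in intestine without the 3 arrays of high residual spread. The 62 include 6 of Cyp2b9, which passed the filter only through its ketogenic level. The Cyp2c65 call was lost with quantile normalization, as was that of Cyp2d22, and without chow ZT4 replicate 6 or ZT8 replicate 10 or ketogenic ZT0 replicate 17, ZT4 replicate 20 or ZT8 replicate 25. Liver rhythms numbered 17 on the ketogenic diet (13 to 18 with 1 array left out) and 9 by a test of any difference between times, and 8 on chow (6 to 9). By the q-values of the authors' deposited table they numbered 8 and 4 (JTK) and 0 and 0 (BioCycle). Intestine rhythms numbered 3 on the ketogenic diet (1 to 5) and 5 on chow (3 to 7), 5 and 9 without those 3 arrays, 8 on the ketogenic diet by the test of any difference, 1 and 2 by the deposited JTK q and 0 and 0 by BioCycle. The BioCycle counts of both tissues stand against the small shares of all genes given above. The 2 liver rhythm differences became 0 with no filter, quantile normalization, median centring or the interaction test, 1 without the 2 chow arrays of a discordant clock, and 0 to 7 with 1 array left out (7 without ketogenic ZT4 replicate 20). Their tests have no direction, and the ketogenic minus chow amplitude changed sign for both: 0.0101 for Cyp2e1 became -0.0084 with quantile normalization and -0.0038 without ketogenic ZT0 replicate 15, and -0.0054 for Cyp2d13 became 0.0039 with median centring and 0.0033 to 0.0071 in 5 of the fits without 1 array, among them the one without chow ZT12 replicate 18. In intestine, called rhythm differences numbered 0 in every fit. The diet difference between tissues was called higher in liver for 9 members, 17 with no filter and 19 with genes passing in at least 1 tissue, and lower for 1, against 2 with no filter, 2 with quantile normalization, 2 with genes passing in at least 1 tissue and 0 at the 60th percentile filter. Levels were higher in liver for 35 and lower for 10, or 11 and 4 among genes passing in both tissues. The cause of these shifts was not tested, except that fewer or more genes were tested under another filter. Same-numbered arrays had a median correlation of deviations of 0.023 over 22 pairs, with 2 over 0.1. Arrays of different numbers had -0.009 over 86 pairs, with 16 over 0.1. Deviations of liver and intestine from the same animal need not move together, so these values cannot decide whether equal numbers mark the same animal. The samples were not treated as pairs. With a replicate block (fitted correlation 0.058 in liver and 0.195 in intestine), the calls were 14 higher and 7 lower in liver, 1 and 12 in intestine, and rhythms 16 and 7 in liver and 2 and 5 in intestine.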
